A study of Saccharomyces cerevisiae with 7 samples.

Results

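The sites described here are Spo11 cleavage sites at which at least 80% of the protein-linked 5′ ends were mapped to one strand. A Spo11 double-strand break leaves one Spo11-linked 5′ end on each strand, and the overhang places the Crick end 1 bp to the right of the Watson end. Hits, that is protein-linked 5′ ends counted at single nucleotides, were therefore summed over the 6 SPO11+ libraries and read as pairs of Watson at a position p and Crick at p+1. A pair entered when both strands had hits and 50 hits or more fell on it together, on 15 chromosomes (all but III). Of 63336 such pairs, 7839 (12.4%) had a Watson share of 0.8 or more, or of 0.2 or less. These one-strand pairs comprised 4204 Watson-favoured and 3635 Crick-favoured pairs. The Watson and Crick hits of the summed map chose them, so that their shares in that map are a description. The values that were tested came from replicates left out of the choice, from the annotation, or from the place in the hotspot. For annotation and place, members were chosen in each replicate alone. Hotspots came from the mean map of all 5 replicates and so were not independent of the choice.

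All cells were meiotic S. cerevisiae of the SK1 background, collected at 6 h in meiosis, and all carried sae2∆. The SPO11+ group had 5 biological replicates, of which the fifth was sequenced as 2 technical replicates that were summed here, and the control was 1 library of spo11-Y135F cells, in which the catalytic tyrosine of Spo11 is replaced. The maps of replicate 5 were deposited under names that say WT, whereas their labels give sae2, and the labels were followed. The replicates held between 3177210 and 8564017 hits, and the control held 2326054. Replicate 2 alone supplied 36.6% of the hits. Without it fewer pairs reached the minimum number of hits, and 4264 of 39059 (10.9%) were one-strand pairs. Without replicate 5, 6924 of 54697 (12.7%) were, against 12.4% of 63336 with all 5 replicates.

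Spo11 is the topoisomerase-like protein that starts meiotic recombination. It acts as a dimer, and each subunit attacks one strand through a tyrosine and stays attached to the 5′ end that it makes. Sae2 is needed for the nuclease that releases Spo11 with a short oligonucleotide, so that in sae2∆ cells the breaks persist with the protein in place. In CC-seq these ends are enriched on silica and sequenced outwards, the Watson read running to the right of the break and the Crick read to the left. Each strand is thus counted from a different DNA fragment. Spo11 cuts mostly in nucleosome-depleted promoters, where breaks cluster into hotspots.

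The Watson share of all pairs had a median of 0.507, and 50.6% of their 12119514 hits were on the Watson strand. One-strand pairs held 1096673 hits, 9.05% of those of all pairs. They were weaker than pairs in general, with a median of 86 hits against 101. Their proportion fell at each step of depth. It was 15.4% among pairs with 50 to 74 hits, 11.4% among those with 100 to 199, and 3.79% among those with 1000 or more (49 of 1293 pairs). The favoured strand carried a median of 86.1% of the hits. It carried 90% or more at 2331 pairs, 95% or more at 952 and 99% or more at 89. The limits of 0.8 and 0.2 fell on a slope and not in a gap, since 3365 members lay within 5 percentage points inside them and 4555 pairs within 5 points outside.

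**Figure D1:**
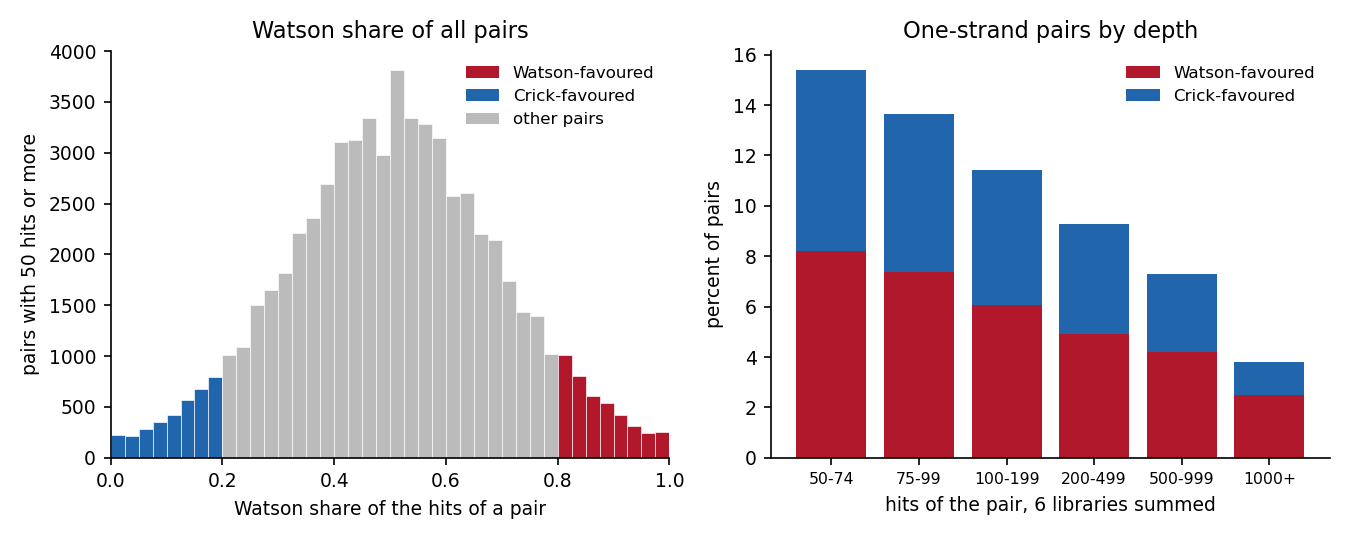
The left panel plots the number of pairs with 50 hits or more against the Watson share of their hits, with Watson-favoured pairs in red and Crick-favoured pairs in blue, and the right panel the percent of pairs in each class of summed hits that were one-strand pairs. The distribution has a single centre near 0.507 with tails to both ends, and the percent falls from 15.4 to 3.79 with depth.

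At the limit, the pair in the intergenic region (IGR) between SIF2 and YMC2 (chromosome II, Watson position 449405) had 344 Watson and 86 Crick hits, a Watson share of exactly 80%, and the pair between YER034W and EDC2 (V, 222417) had 192 and 48. Just outside lay a pair between MRPL8 and COA3 (X, 316551) with 347 Watson and 87 Crick hits, a share of 79.95%. On the Crick side the pairs nearest to the limit were between COA6 and FAA4 (XIII, 758993), with 61 Watson and 244 Crick hits, and between PRI2 and MMO1 (XI, 355376), with 52 and 208. The pair just outside lay between COQ2 and MVD1 (XIV, 701755) and had 48 Watson and 191 Crick hits. Single replicates of these pairs fell on both sides of the limit. The Watson share of the SIF2 pair, for example, was 80.9%, 77.4%, 88.5%, 78.0% and 76.8% in replicates 1 to 5.

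Both directions occurred on every chromosome analysed, and Watson-favoured pairs were the more frequent on 11 of 15. Over all members, 53.6% were Watson-favoured. The extremes were chromosome I, with 153 Watson- and 72 Crick-favoured pairs (68.0% Watson), and chromosome II, with 196 and 297 (39.8%). The proportion of pairs that were one-strand pairs lay between 10.3% on chromosome II and 15.6% on chromosome VII.

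The Watson-favoured pair with the most hits lay between FRS2, which encodes a subunit of phenylalanyl-tRNA synthetase, and GAT1, an activator of nitrogen-regulated genes (VI, Watson position 95819). In replicates 1 to 5 its Watson nucleotide had 474, 1576, 863, 554 and 654 hits and its Crick nucleotide 144, 345, 144, 124 and 147. The Watson share was 81.6% ± 3.20 (SD, n = 5), highest in replicate 3 (85.7%) and lowest in replicate 1 (76.7%). The pair between PEX25, a peroxisomal protein, and the arginase gene CAR1 (XVI, 339531) was the least even among replicates. Its Watson hits were 336, 1359, 726, 446 and 521 and its Crick hits 139, 183, 51, 67 and 166. Replicates 1 (70.7%) and 5 (75.8%) stood below the other 3, which lay between 86.9% and 93.4%.

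The other 3 of the strong Watson-favoured pairs were more extreme and varied less. Between GSH1, which encodes the first enzyme of glutathione synthesis, and LSB6, a phosphatidylinositol 4-kinase (X, 236681), the Watson hits were 170, 737, 431, 265 and 314 and the Crick hits 3, 12, 6, 7 and 6. The share was 98.2% ± 0.454. Between the trehalose-6-phosphate synthase gene TPS1 and MEO1 (II, 490702), the Watson hits were 264, 761, 422, 322 and 473 and the Crick hits 9, 17, 9, 15 and 14, a share of 97.0% ± 0.962. The pair between TAX4 and IML2 (X, 280879) had 513, 1037, 451, 297 and 351 Watson hits against 52, 85, 37, 18 and 50 Crick hits, a share of 91.5% ± 2.53. In none of these 3 pairs did a replicate fall below 87.5% Watson.

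On the Crick side, the strongest pair lay between AGP2, a plasma membrane protein that regulates carnitine and polyamine uptake, and HSL7, which acts in the morphogenesis checkpoint (II, Watson position 501758). Its Crick hits were 378, 1121, 547, 386 and 454 and its Watson hits 49, 93, 58, 31 and 27, a Crick share of 91.7% ± 2.24. A second pair 8 bp to the right (II, 501766) had 219, 722, 352, 201 and 223 Crick hits and 18, 30, 20, 27 and 11 Watson hits, a Crick share of 93.3% ± 3.18. The most one-sided of the 10 strongest pairs lay next to ERG11, which encodes lanosterol demethylase (VIII, 122167). There the Crick hits were 274, 862, 424, 303 and 230 while the Watson hits were 2, 3, 2, 6 and 4, a Crick share of 99.0% ± 0.736, with 98.1% in the lowest replicate.

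The other Crick-favoured pairs of this group were less even. Between SOD1, the cytosolic superoxide dismutase, and the adenosine kinase gene ADO1 (X, 623337), the Crick hits were 193, 658, 369, 192 and 197 and the Watson hits 39, 89, 35, 13 and 38, a Crick share of 88.0% ± 4.57. Between YAP1801, a clathrin assembly protein, and MPC2, a subunit of the mitochondrial pyruvate carrier (VIII, 422704), the Crick hits were 125, 630, 292, 202 and 186 and the Watson hits 52, 87, 49, 24 and 46. Replicate 1 gave a Crick share of 70.6% at the latter, and the other 4 lay between 80.2% and 89.4%. In the spo11-Y135F library each of these 10 pairs had 2 hits or fewer.

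**Figure D2:**
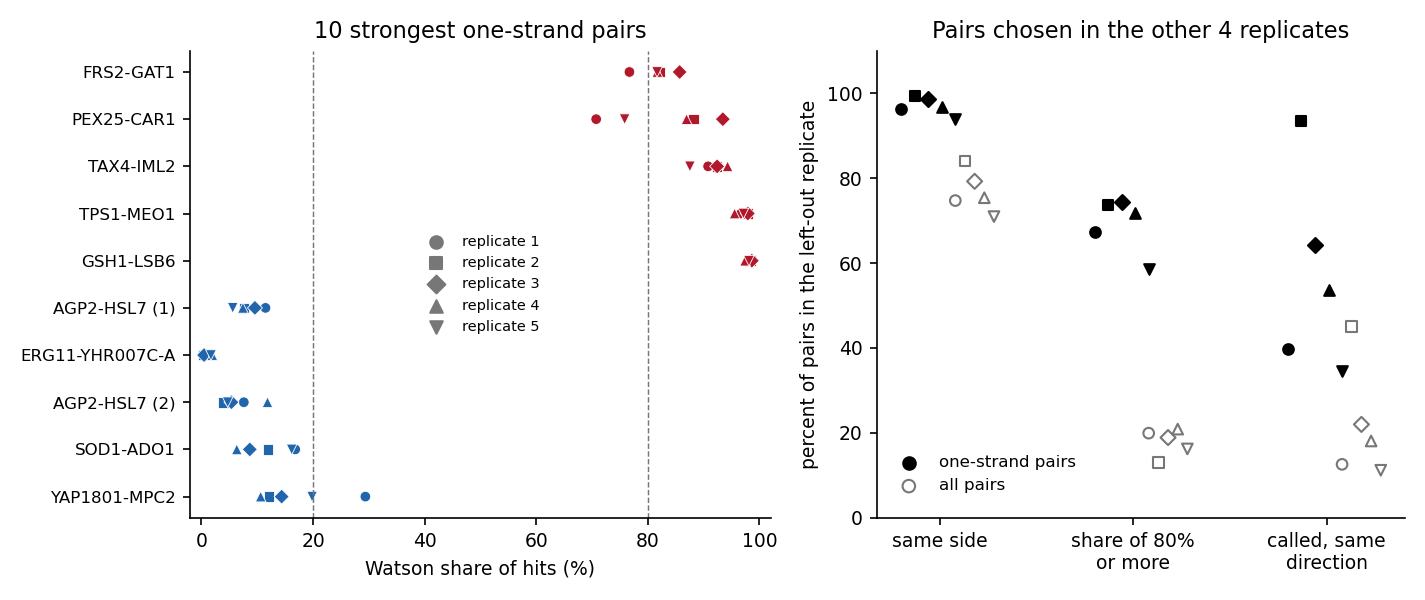
The left panel plots the Watson share of hits (%) of the 10 strongest one-strand pairs in each of 5 replicates, named by the neighbouring genes, with dashed lines at 20 and 80. The right panel gives, for each replicate left out in turn, the percent of pairs that fell on the same side, reached a share of 80% on the favoured strand, or were called by the binomial test in the same direction, as filled symbols for one-strand pairs chosen in the other 4 replicates and open symbols for all pairs, and every filled symbol lies above the open symbol of the same replicate.

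In single replicates a typical member had few hits, a median between 11 in replicate 1 and 35 in replicate 2. These replicates also chose the members, so that agreement among them is fixed in part by the rule and is given as a description. Hits were present in all 5 replicates at 7791 members, and 7176 (91.5% of all members) had most of them on the favoured strand in every replicate. A share of 80% or more was reached in every replicate by 2437 (31.1%), which is a stricter condition at this depth. Among 1284 members with 20 hits or more in every replicate, 1278 had the same favoured strand in all 5, and the SD of the favoured share over replicates had a median of 5.41 percentage points. That spread exceeded counting error. The chi-square of the strand counts over 5 replicates was 1.67 per degree of freedom at 3126 members and 1.62 at 32652 pairs in general, and 1.19 at 1479 members between the technical replicates of replicate 5.

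Since the summed map chose the members, pairs were chosen anew from 4 replicates by the same rule and then measured in the fifth. This gave between 4264 and 6900 members with hits in the left-out replicate. The favoured strand was the same in 97.0% ± 2.20 of them (SD, n = 5), from 93.8% in replicate 5 to 99.5% in replicate 2, against 76.9% ± 4.98 of all pairs. The favoured strand held 84.7% ± 2.31 of their hits there, against 62.6% ± 1.37 for the favoured strand of all pairs. A share of 80% or more was found again at 69.2% ± 6.50 of members and at 17.8% ± 3.17 of all pairs. Replicate 5 was lowest in each of these measures for members. The mean of the other 4 values for the same side was 97.8%, although replicate 5 had helped to choose the members in each of them.

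The strands of each pair were then compared in the left-out replicate by an exact two-sided binomial test, with Benjamini-Hochberg adjustment over all pairs tested and a level of 0.05. In replicate 1, 2710 of 6815 members (39.8%) were called in the direction of the other 4 replicates, where 12.6% of all 55712 pairs were. The deepest library, replicate 2, called 3989 of 4264 members (93.6%), against 45.0% of all pairs. The values were 64.2% against 22.0% in replicate 3, 53.7% against 18.1% in replicate 4, and 34.5% against 11.2% in replicate 5. Opposite calls were made for 2 members, both in replicate 5. Members were thus called at least 2 times as often as pairs in general in every replicate. Replicate 5 had the lowest percent of both, although replicate 1 held fewer hits, with a median of 13 per member against 14.

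Next, the place of one-strand pairs in the hotspot was examined. Hotspots were stretches where the Hann-smoothed mean map, with both strands added, exceeded 3 times its mean, which gave 2682 hotspots on 5.89% of the analysed length. Of the members, 7318 (93.4%) lay in hotspots, as did 95.2% of all pairs. One-strand pairs were 12.1% of the pairs inside hotspots and 17.3% of those outside. They were the strongest pair in 227 (9.11%) of the 2493 hotspots with 3 pairs or more, and their median distance from the highest point of the smoothed map was 48.5 bp for Watson-favoured and 44.5 bp for Crick-favoured pairs, against 43.5 bp for all pairs.

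Watson-favoured pairs lay further to the right in hotspots than Crick-favoured pairs. The hotspots were the same for each replicate, and their map holds the hits that chose the members. On a scale from 0 at the left edge to 1 at the right edge, members chosen in each replicate alone had mean positions of 0.551 (Watson-favoured) and 0.451 (Crick-favoured) in replicate 1, 0.537 and 0.461 in replicate 2, 0.514 and 0.480 in replicate 3, 0.534 and 0.462 in replicate 4, and 0.531 and 0.470 in replicate 5. The difference was 0.0687 ± 0.0242 of the hotspot width and had the same sign in 5 of 5 replicates (exact two-sided sign-flip permutation test, p = 0.063, the smallest that 5 replicates allow). With the distance from the hit-weighted median position in place of the scaled position, the difference of the means was 56.7 bp. In the summed map, 55.2% of Watson-favoured and 46.0% of Crick-favoured pairs lay to the right of the highest point, against 50.9% of all pairs.

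The 2 directions changed differently along the hotspot. Watson-favoured pairs were 4.86% of the pairs in the leftmost of 10 equal bins, between 5.51% and 6.70% from the second bin to the eighth, and 11.3% in the rightmost. Crick-favoured pairs were 9.59% in the leftmost bin and fell to 4.35% in the ninth, with 6.00% in the rightmost. The hits of all pairs, with members included, shifted in the same way, and no share without members was taken. Their Watson share rose from 43.2% ± 1.03 (SD, n = 5) in the leftmost bin to 57.0% ± 1.31 in the rightmost, and lay between 49.6% and 51.2% from the third bin to the seventh. All 5 replicates were below 45% on the left and above 55% on the right.

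**Figure D3:**
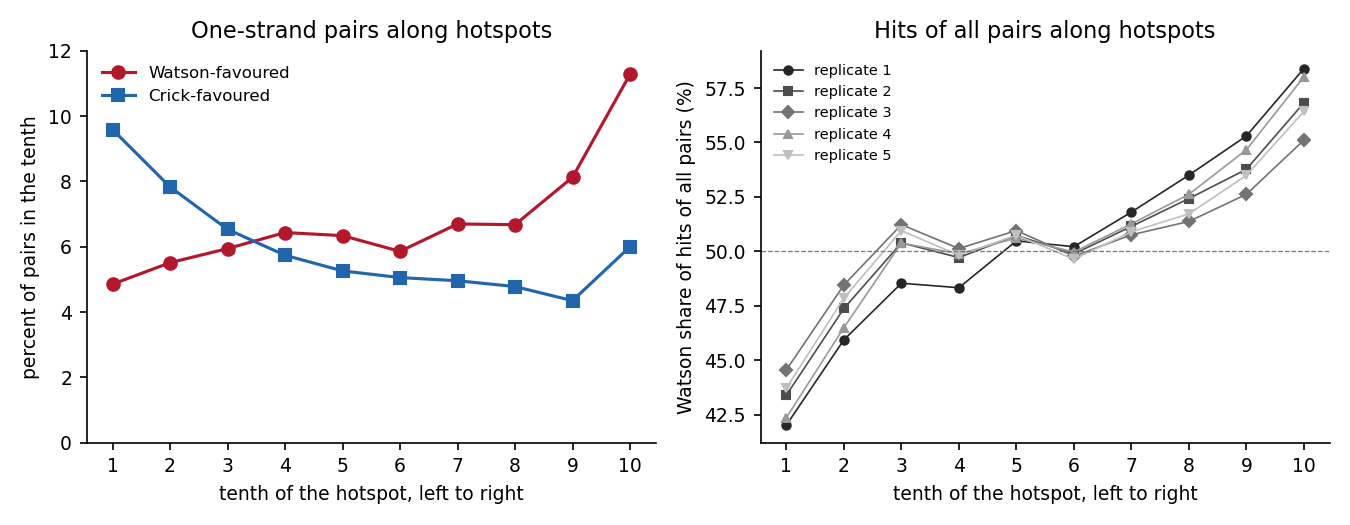
The left panel plots the percent of pairs in each of 10 equal bins of the hotspot, from left to right, that were Watson-favoured (red) or Crick-favoured (blue) in the summed map, and the right panel the Watson share of the hits of all pairs (%) in each bin and replicate. Watson-favoured pairs are most frequent at the right edge (11.3%) and Crick-favoured pairs at the left edge (9.59%).

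At least 1 member lay in 1483 of the 2665 hotspots with a pair. The 190 hotspots with 10 members or more held 3635 members, 46.4% of the total, and 22.9% of all pairs, a contrast that their choice by number of members favours. In 99 of these 190 all members favoured the same strand, and in 44 Watson-favoured pairs were between 25% and 75% of the members. Hotspots differed in the strand share of all their hits. In 246 of them 70% or more of the hits lay on the same strand in every replicate, on Watson in 136 and on Crick in 110. These one-sided hotspots held 6.10% of all pairs and 27.0% of the members. Of their pairs 54.8% were one-strand pairs, against 9.21% in the other hotspots. Both contrasts follow in part from the choice, since the strands of the same hits defined these hotspots and the members. One-sided hotspots were narrower, with a median of 168 bp against 189 bp, and weaker, with a median of 93.3 against 118 hits per 1000000 mapped reads (HpM). Of their 2118 members, 2111 were of the hotspot's side, which follows in part from how both were chosen.

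The hotspot with the most members lay between FRS2 and GAT1 (VI, 95136 to 96485) and held 86 among 250 pairs, 78 Watson- and 8 Crick-favoured. The Watson share of all its hits was 63.7%, 66.3%, 66.4%, 63.4% and 67.0% in replicates 1 to 5. It was not even along the hotspot. The left part, 1 of 3 of equal width, had 36.9% ± 3.90 of its hits on Watson and 7 of the 8 Crick-favoured members, whereas the middle part had 71.7% ± 1.93 on Watson with 55 Watson-favoured members and the right part 79.9% ± 5.76 with 22. The ranges of the left part and the other 2 did not overlap, the left part reaching 43.6% and the others starting at 69.9%.

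In other hotspots, named here after their values had been seen, all members favoured the same strand. Between YGR067C and ART5, which encodes an arrestin-related adaptor of ubiquitin ligation (VII, 624963 to 626208), 82 of 129 pairs were one-strand pairs and all of them were Crick-favoured. The Watson share of the hits there was 21.1%, 18.0%, 19.1%, 19.9% and 18.4%, against 138 Watson and 114 Crick hits in the spo11-Y135F library. Between SCS3 and the methylenetetrahydrofolate reductase gene MET13 (VII, 271412 to 272311), all 46 members were Watson-favoured and the Watson share was 78.2% ± 2.28. Between PRM4 and the kinesin gene KIP2 (XVI, 256939 to 257392), 40 of 56 pairs were one-strand pairs, all Crick-favoured, with a Watson share of 17.9% ± 2.09. These 3 hotspots lie in IGRs between genes of the same direction, and in each the strand with more hits is the sense strand of both neighbours.

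The hits beside one-strand pairs leaned to the same strand. In replicates left out of the choice, 63.0% ± 0.701 (SD, n = 5) of the hits within 50 bp of Watson-favoured pairs were on Watson, and 37.6% ± 0.614 of those around Crick-favoured pairs, with the pair and the 2 bp next to it left out. Around all pairs the value was 50.6% ± 0.128. The difference between the directions was 25.4 ± 1.25 percentage points and lay between 23.8 and 26.7 in the 5 replicates (exact two-sided sign-flip permutation test, p = 0.063, the smallest possible). When the hits of other members were also left out, the shares were 59.1% ± 0.664 and 40.7% ± 0.547.

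The lean faded with distance to both sides. Within 3 to 10 bp of Watson-favoured pairs the Watson share was 63.0% on the left and 65.2% on the right. At 101 to 200 bp it was 55.1% on the left and 61.3% on the right, and at 501 to 1000 bp 47.6% and 60.2%. Crick-favoured pairs gave the mirrored pattern, with 34.5% on the left and 38.2% on the right at 3 to 10 bp, and 39.3% and 52.4% at 501 to 1000 bp. All pairs also differed between the sides, with 44.2% on the left and 56.6% on the right at that distance. Relative to all pairs, the Watson share around Watson-favoured pairs was higher on both sides. The excess was 13.6 percentage points on the left and 13.5 on the right at 3 to 10 bp. At 501 to 1000 bp it was 3.41 and 3.55. The excess was larger on the right from 11 to 200 bp, with 11.19 on the left and 12.79 on the right at 21 to 50 bp. At 201 to 500 bp it was larger on the left, with 6.22 against 5.254. Around Crick-favoured pairs the Watson share was lower than around all pairs. This lean was larger on the left in every window, with -13.32 on the left and -11.75 on the right at 21 to 50 bp. The differences between the sides were not tested.

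Neighbouring pairs showed the lean one by one. Of the pairs within 50 bp of a Watson-favoured pair, 26.7% were Watson-favoured too and 2.18% were Crick-favoured. Around Crick-favoured pairs 24.8% were Crick-favoured and 2.61% Watson-favoured, and around all pairs the proportions were 6.44% Watson- and 5.37% Crick-favoured. A member of the same direction lay within 50 bp of 6064 members (77.4%), and one of the opposite direction within 50 bp of 1374 (17.5%). No other member was that near for 1426 (18.2%). These percentages of members were not taken around all pairs, so that no background stands beside them. The median number of pairs within 50 bp was 12 for members of each direction and 13 for all pairs.

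**Figure D4:**
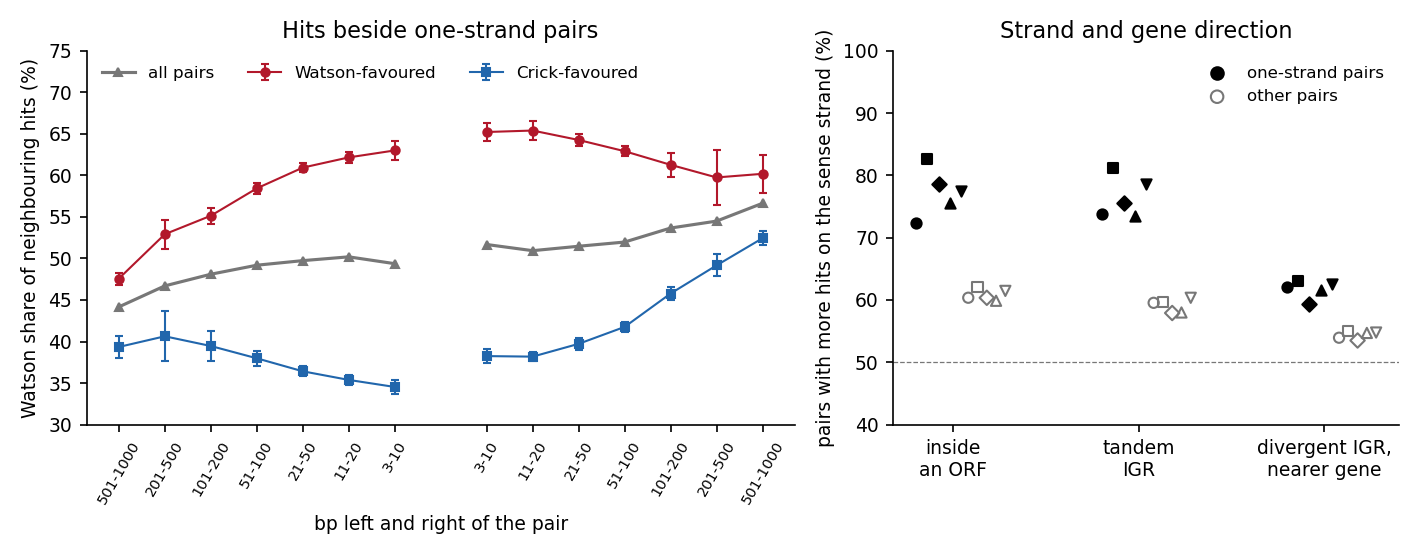
The left panel plots the Watson share of hits (%) in windows to the left and right of Watson-favoured (red), Crick-favoured (blue) and all pairs (grey), as mean and SD of 5 left-out replicates for the members and from the summed map for all pairs. The right panel plots the percent of one-strand pairs (filled) and other pairs (open) of each replicate whose favoured strand is the sense strand of the gene, and the filled symbols lie above 70% inside ORFs and in tandem IGRs.

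Neighbourhoods were divided by a limit set after these values had been seen. For 4909 members (62.6%) the favoured strand held 65% or more of the hits within 50 bp, whereas 14.4% of the 55497 other pairs had such surroundings on the strand where they had more hits. The remaining 2930 members (37.4%) had less one-sided surroundings, among them 816 whose surroundings leaned to the other strand. The limit cuts a continuous range, with 1610 members within 5 percentage points of it. Of the named pairs, those next to AGP2 (79.5% of 22493 neighbouring hits on Crick), TAX4 (78.5% on Watson) and FRS2 (76.5% on Watson) were of the first kind, and those next to TPS1 (37.2% on Watson), GSH1 (57.0% on Watson) and YAP1801 (57.9% on Crick) of the second.

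Hits were next read at single nucleotides. Positions are counted along the favoured strand from its favoured nucleotide, so that the partner on the other strand lies at +1. At balanced pairs, with a Watson share of 0.4 to 0.6, the other strand had 82.4% as many hits at +1 as the favoured nucleotide, and 37.2% at 0. At members with less one-sided surroundings, summed over all of them, the partner at +1 had 13.7%, but the other strand had 174% at position 0, and the favoured strand itself had 160% at -1. In this sum, to which strong sites contribute most, the pair 1 nt upstream on the favoured strand therefore had more hits than the member. In 1080 of these 2930 members (36.9%) that upstream pair had more hits than the member, against 13.2% of balanced pairs, and in 370 (12.6%) the pair 1 nt downstream did. Members with one-sided surroundings had 15.5% on the other strand at +1 and 13.6% at 0, low values that the choice of the pairs and of the surroundings fixes in part, and a stronger upstream pair in 13.3%.

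The same sums were taken in replicates that had not chosen the members. Summed over all members, the other strand had 62.7% ± 5.54 (SD, n = 5) of the hits of the favoured nucleotide at position 0 and 18.1% ± 3.31 at +1. At balanced pairs the order was the opposite, with 35.8% ± 2.55 at 0 and 83.7% ± 2.66 at +1. On the favoured strand, position -1 had 75.4% ± 8.18 around members and 34.6% ± 1.97 around balanced pairs, while position +1 had 28.7% ± 3.55 and 34.3% ± 1.92. Strong sites weigh most in these sums, and most single members did not have this order. In the summed map the other strand had more hits at 0 than at +1 in 2367 members (30.2%), against 13.9% of balanced pairs. In the left-out replicates the other strand had 60.8% ± 5.79 at position 0 for Watson- and 64.9% ± 5.56 for Crick-favoured pairs. The Crick-favoured value was higher in each of the 5 replicates, and the difference was not tested.

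**Figure D5:**
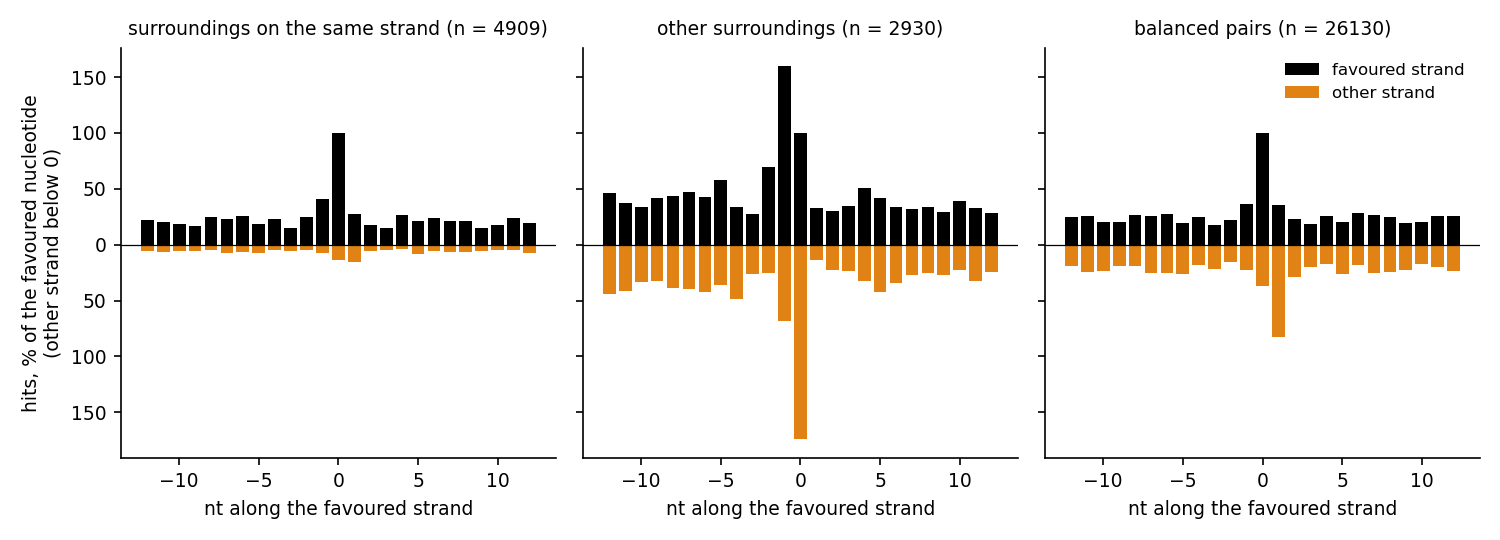
Each panel plots summed hits at positions from -12 to +12 nt along the favoured strand as percent of those at the favoured nucleotide (position 0), with the favoured strand above and the other strand below the line, for members whose surroundings lay on the same strand, for other members and for balanced pairs. The partner at +1 reaches 82.4% at balanced pairs, 15.5% and 13.7% at members, and the bars at -1 above (160%) and 0 below (174%) stand out in the middle panel.

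Single pairs showed forms that the mean does not. Next to ERG11 the favoured Crick nucleotide had 2093 hits and its upstream Crick neighbour 751, while the Watson strand had 17 and 2 at the positions paired with them. In the TPS1 pair the favoured Watson nucleotide had 2242 hits, and no other position within 3 bp exceeded 105 on either strand. In the GSH1 IGR, Watson hits lay at 2 adjacent nucleotides with 1917 and 1454, and the Crick hits paired with the first were 34 and with the second 1200. The first of these pairs is a member, and the second is not.

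One-strand pairs were unevenly spread over the regions between and within genes. IGRs were called divergent where both neighbouring genes run away from the region, convergent where both run towards it, and tandem where they run the same way. Of all pairs 47.9% lay in divergent IGRs, 40.7% in tandem IGRs, 10.5% inside ORFs and 0.949% in convergent IGRs, whereas 33.3%, 49.0%, 16.5% and 1.17% of the members did. Members were thus 8.62% of the pairs in divergent IGRs, 14.9% in tandem IGRs and 19.4% inside ORFs. The order was the same among pairs with 100 hits or more, at 6.68%, 12.7% and 16.3%.

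The favoured strand followed the direction of the gene. In tandem IGRs it was the sense strand of the genes for 3227 of 3841 members (84.0%) and for 60.5% of the other pairs. Inside ORFs it was the coding strand for 1081 of 1289 members (83.9%), leaving out 4 where genes of both strands overlap, and for 62.6% of the others. In divergent IGRs it was the sense strand of the nearer gene for 1661 of 2607 (63.7%), against 55.5%. The percent was 84.2% for Watson- and 83.8% for Crick-favoured members in tandem IGRs, 81.1% and 87.3% inside ORFs, and 64.1% and 63.3% in divergent IGRs, and the differences between the directions were not tested. The gene direction had no part in the choice of the members, but the strand share did. The other pairs include balanced pairs, whose strand with more hits is less certain. The size of the gap between members and other pairs thus depends in part on the choice.

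With members chosen in each replicate alone, the favoured strand was the sense strand for 73.9%, 81.2%, 75.6%, 73.5% and 78.6% of members in tandem IGRs (mean 76.6% ± 3.27) and for 72.3%, 82.7%, 78.6%, 75.6% and 77.5% inside ORFs (mean 77.3% ± 3.83). In divergent IGRs it was the sense strand of the nearer gene for 61.7% ± 1.48. Every value lay above 50% and above that of the other pairs of the same replicate, whose means were 59.1% ± 1.09, 60.8% ± 0.924 and 54.4% ± 0.643. Each of the 3 comparisons with 50% gave the smallest p of the exact two-sided sign-flip permutation test, 0.063. For members of the summed map with one-sided surroundings, the sense strand was favoured in 93.3% (tandem), 90.6% (ORF) and 74.6% (divergent). For its members with other surroundings the values were 61.6%, 61.1% and 55.3%. These were near those of pairs that are not members, 60.5%, 62.6% and 55.5%. The higher sense percent of members in the summed map thus lay in those with one-sided surroundings.

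The spo11-Y135F library, a single library without a replicate check, gave 973 hits at Watson-favoured and 837 at Crick-favoured pairs. This is 0.231 and 0.230 hits per pair, as at pairs in general (0.236). The Watson share of the control hits was 58.8% at Watson-favoured pairs (95% Wilson interval 55.7 to 61.8) and 39.8% at Crick-favoured pairs (36.5 to 43.1), against 49.6% (48.8 to 50.4) at all pairs. Within 50 bp it was 51.6% (51.0 to 52.1) and 48.6% (48.0 to 49.2). A small lean to the favoured strand was therefore present in cells without catalytic Spo11, and its part in the result was not tested. Along the gene, the control leaned to the sense strand at members inside ORFs, with 57.4% of 279 hits (51.5 to 63.0), while at members in tandem IGRs it had 52.6% (49.4 to 55.9), and in divergent IGRs 53.6% (49.7 to 57.6), both intervals holding 50%. Within 50 bp of members 49.8% of control hits (49.3 to 50.3) were on the sense strand in tandem IGRs, 49.9% (49.0 to 50.8) inside ORFs and 50.7% (50.1 to 51.4) in divergent IGRs, where the interval lies above 50%. Control hits in the 300 bp on the left and right were 0.202 and 0.206 per bp at Watson-favoured pairs, 0.209 and 0.202 at Crick-favoured pairs, and 0.207 on both sides of other pairs. Members lay within 1000 bp of a masked stretch or map end in 3.28% of cases and other pairs in 3.74%.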

How the data were processed

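Spo11 CC-seq hits were analysed in 6 SPO11+ libraries (5 biological replicates) and 1 spo11-Y135F library. Reads were aligned by the authors with bowtie2 to Cer3H4L2 (S. cerevisiae with his4::LEU2 and leu2::hisG), and the first base of the protein-linked end was kept for each strand. Repeats such as LTRs and rDNA were masked by them, together with telomeres. Each library was deposited as a raw count per nucleotide and strand. An average map deposited in HpM, a signal scaled by the authors to 1000000 mapped reads, served only as an alternative, with its Crick positions moved up by 1 bp. No column was left unused.

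Members and lists were chosen with earlier results of these data known. For hotspots, the mean HpM map of the 5 replicates was smoothed (Hann window, 100 bp to each side), and runs of 25 bp or more that exceeded 3 times its mean were merged when under 200 bp apart. Gaps of over 200 bp with no hit at all were treated as masked. In single replicates the minimum of 50 hits was scaled to the replicate's part of all hits. Wilson intervals cover counting error only. PCR copies were not told apart by molecular identifiers, so binomial p-values treat reads as independent. Replicates are separate samples by their labels. The sign-flip p-values measure the spread between these samples, whereas the binomial p-values cover counting error within a library only. For the neighbour difference, members came from overlapping sets of 4 replicates, so that its 5 values are not independent of each other.

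The pairs named are the 5 of each direction with the most hits, those nearest to the limit, and the hotspot with the most members, with the nearest protein-coding gene on each side from a table of assembly R64, of which no coordinate is given. Region types and gene directions use 6002 of its genes, read against maps of Cer3H4L2 without a shift. Coordinates are those of the maps. The comparison with gene direction, the limit on surroundings and the definition of one-sided hotspots were added after the data had been seen, with their alternatives. Base composition at members had been planned and is not analysed here, since no genome sequence was used. Python 3.11.15, numpy, scipy, pandas and matplotlib were used, and the procedures were tested on simulated data.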

Additional observations from a re-analysis of the deposited data

How the results depend on the processing

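The number of one-strand pairs followed its definition. It was 14187 with a minimum of 30 hits (14.4% of pairs) and 3228 with 100 (10.0%). It was 12394 with limits of 0.75 and 0.25 (19.6%) and 2331 with 0.9 and 0.1 (3.68%). With a replicate left out it was between 4264 of 39059 pairs (10.9%, without replicate 2) and 6924 of 54697 (12.7%, without replicate 5). Offsets of 0 bp or 2 bp are not that of a Spo11 break. Pairs at them gave 45609 of 64723 (70.5%) and 43459 of 59736 (72.8%) past the same limits, against 12.4% at 1 bp. Zero hits on one strand allowed (8349), equally weighted replicates (7400), chromosome III included (8255) and the authors' average map (7405) changed the number at 1 bp by less than 1.5 times. The Watson-favoured percent was 52.6 with 30 hits, 53.4 with 0.75 and 0.25, 53.1 with 0.9 and 0.1, 53.3 with 0 hits allowed, 54.0 with equal weights and 54.0 in the average map, and between 53.6 and 54.1 with a replicate left out. The same side was found in the left-out replicate for 99.4% of members with 20 hits or more there, and the binomial test called 81.4% of members with the minimum at 100 hits. The peak side difference kept its sign under 11 alternatives, the neighbour difference under 10 and the sense-strand percentages stayed above 50% under all tried. With the value of a replicate dropped from the mean, the same side was found for 96.4% to 97.8% and the test called 48.1% to 62.8%. The dropped replicate still took part in choosing those members. The peak side, neighbour and sense-strand alternatives without a replicate also only dropped its value. The smallest p of their sign-flip test is then 0.125.

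None of 25 measures compared between the 5 replicates had a replicate far from the other 4 by Dixon's test. Depth limits most members, which hold a median of 11 to 35 hits in a replicate, so that a share past the limit in a single library is uncertain while its direction is firmer. The control is a single library. The genes come from a table of another assembly. Base composition was not run. No paired analysis was possible because the control has 1 library.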
